A study of Rattus norvegicus with 8 samples.

Results

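The family of glial cell line-derived neurotrophic factor (GDNF) was followed in rat retina through its 4 ligand genes (Gdnf, Nrtn, Artn and Pspn), its 4 co-receptor genes (Gfra1 to Gfra4) and Ret, the shared signalling receptor. A probe set was assigned to a member when the array annotation gave it exactly 1 gene symbol, equal to that member. All 9 genes were present, with 78 of the 213067 probe sets, and they are 9 of 16633 genes so annotated. Retinas came from male Brown Norway rats aged 8 weeks, taken 4 h after transcorneal electrical stimulation (TES) or after a sham procedure. TES passes current through the eye from an electrode on the cornea. Each group has 4 samples, with 1 Affymetrix Rat Gene 1.0 ST array per sample, and all animals were wild type. Since the labels name no animal for an array, the spread behind each p-value is that between arrays and may be partly technical. No current strength or duration is stated in the sources used here.

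GDNF, neurturin (Nrtn), artemin (Artn) and persephin (Pspn) are secreted, distant relatives of TGF-beta. Each binds a preferred co-receptor held to the membrane by a lipid anchor: GDNF to GFRa1, neurturin to GFRa2, artemin to GFRa3 and persephin to GFRa4. The ligand and co-receptor pair then brings together a pair of RET molecules, whose kinase domains signal through the MAP kinase and PI3 kinase pathways. In the retina GDNF and neurturin are known for protecting photoreceptors and ganglion cells, in part by acting on Mueller glia, and RET is found on horizontal, amacrine and ganglion cells.

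Promoter windows are shown for Nrtn and Pspn, the 2 members with an unadjusted p under 0.05, and for Gdnf, the founding ligand. They come from RefSeq (assembly GRCr8), run 5′ to 3′ on the gene's strand, and cover 250 bases before to 50 after the annotated start. The Gdnf window lies at chr2:58621077-58621376 on the plus strand, that of Nrtn at chr9:1670179-1670478 and that of Pspn at chr9:1928703-1929002, both on the minus strand. Capitals mark matches, searched on both strands, to any of 3 motifs that do not overlap here. The TATA box was searched as TATAAA. The half-site of the cAMP response element was searched as TGACG, which reads as its reverse complement in the Gdnf window. The GC box was searched as GGGCGG.
Gdnf: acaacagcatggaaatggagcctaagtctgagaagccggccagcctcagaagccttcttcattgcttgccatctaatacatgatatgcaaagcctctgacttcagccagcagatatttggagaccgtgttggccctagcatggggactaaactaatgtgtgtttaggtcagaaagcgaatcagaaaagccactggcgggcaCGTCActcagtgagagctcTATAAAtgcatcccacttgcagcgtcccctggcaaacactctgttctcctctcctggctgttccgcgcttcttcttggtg
Nrtn: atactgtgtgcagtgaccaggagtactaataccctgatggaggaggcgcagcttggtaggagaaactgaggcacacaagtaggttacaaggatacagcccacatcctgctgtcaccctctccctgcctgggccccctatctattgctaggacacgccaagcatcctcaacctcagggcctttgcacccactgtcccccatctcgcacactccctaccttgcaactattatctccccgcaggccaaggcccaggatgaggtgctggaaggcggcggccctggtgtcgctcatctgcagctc
Pspn: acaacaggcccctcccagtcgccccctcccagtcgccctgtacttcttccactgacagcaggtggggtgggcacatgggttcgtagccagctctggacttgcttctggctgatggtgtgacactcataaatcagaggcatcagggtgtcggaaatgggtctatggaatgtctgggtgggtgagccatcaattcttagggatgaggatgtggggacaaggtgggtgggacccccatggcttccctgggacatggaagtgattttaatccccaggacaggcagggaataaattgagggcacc
The Gdnf window held 1 TATA box match beginning 30 bases before the start and 1 half-site beginning 49 bases before it. The Nrtn and Pspn windows held none of the 3 motifs, which says only that these letters are not in these windows. Whether the annotated starts are where transcription begins in retina was not tested. Of 33469 windows of this length, 14.2% held the TATA box letters, 21.2% held the half-site and 33.1% held the GC box. GC content was 50.7% for Gdnf, 58.0% for Nrtn and 56.3% for Pspn, and the median window had 51.7%. Windows were matched for 8 of the 9 members.

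Values are the authors' log2 GC-RMA signals, a background-corrected summary of the probes of a probe set, averaged over the probe sets of a gene on each array. A signal of 1 probe set or gene cannot be set against another's, so comparisons are made within a gene. The 1100 olfactory receptor genes on the array serve as a rough guide to low signal, with a 95th percentile of 3.10, and 8 members had a mean above it. Gfra3, at 3.09, did not, although its probe sets 10803821 (4.53) and 10803823 (4.75) did. The median signal of an array lay between 5.32 and 5.41, and the pairwise r of arrays, computed across genes, ran from 0.9896 to 0.9945. The 6 matched rod markers averaged 10.26 to 10.54 on the 8 arrays.

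No member passed an adjusted p of 0.05 in limma (Benjamini-Hochberg over all genes), with adjusted p-values from 0.836 to 0.996. No gene of the whole table passed either (0% called). At an unadjusted p under 0.05 limma gave 2 members of 9 (22.2%), against 5.57% of all genes (3.22% lower). These were Nrtn and Pspn, both lower after TES. The exact permutation test gave 0 members against 3.31% of all genes. With 4 against 4 arrays its p falls under 0.05 only where the groups do not overlap. Nrtn and Pspn also had a change of at least 1.2 fold, so they met the 2 thresholds of the series text. Of all genes 3.59% met them (1.96% lower). Of the 9 members 8, all but Gfra3, had a lower mean after TES, against 54.9% of all genes. This count was 7 with each array centred on its median, where Gfra2 lay at 0.001 and 41.9% of all genes were lower. It was 6 with the median probe set of each gene, against 53.2% of all genes. With the probe set of highest mean it was also 6, against 49.5% of all genes. The median difference was -0.08 over the 9 members and -0.01 over all genes.

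**Figure D1:**
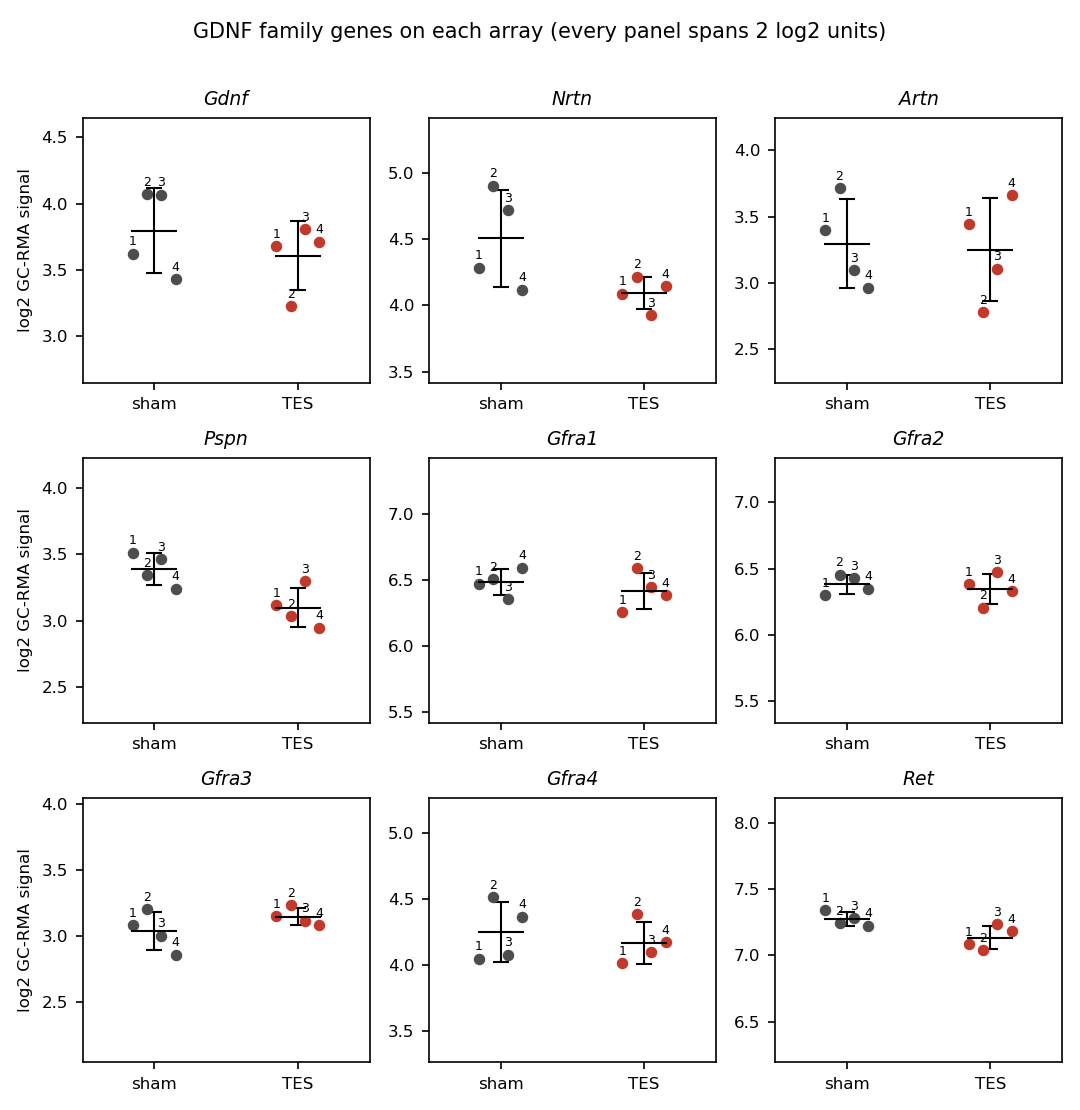
Log2 GC-RMA signal (vertical axis) of each GDNF family gene on the 4 sham and 4 TES arrays (horizontal axis). Points are arrays, numbered by replicate, horizontal bars are means, error bars are SDs over 4 arrays, and every panel spans 2 log2 units. The groups overlap in all 9 genes, and 3 of 4 TES arrays lie below every sham array for Pspn and Ret.

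Neurturin had the largest difference of the ligands. Nrtn stood at 4.29, 4.91, 4.72 and 4.12 on sham 1 to sham 4, and at 4.09, 4.22, 3.93 and 4.15 on TES 1 to TES 4. Sham 2 and sham 3 were high and sham 4 lay within the range of the TES arrays, so the groups overlapped, and 2 TES arrays lay below every sham array. The mean was 4.51 ± 0.37 (SD, n = 4) after sham and 4.10 ± 0.12 after TES. The difference was -0.41 (95% interval -0.76 to -0.06), a signal 1.33 fold lower. Its limma p was 0.0241 unadjusted and 0.843 adjusted, and the exact two-sided permutation p was 0.0857. The smallest p that this permutation test of 4 against 4 arrays allows is 0.0286. Leaving out 1 array gave differences from -0.54 (without sham 4, limma p 0.00346) to -0.28. Without sham 2 the difference was -0.28 (limma p 0.0738), without sham 3 it was -0.34 (p 0.0714) and without TES 3 it was -0.36 (p 0.0664). The unmoderated test gave a p of 0.0771.

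The 2 probe sets of Nrtn had unlike differences, but limma's diffSplice test of unequal probe sets, described below, gave an adjusted p of 0.698. Probe set 10930891 stood at 5.36, 5.91, 5.61 and 5.02 on the sham arrays and at 4.90, 4.87, 4.45 and 4.62 on the TES arrays. All 4 TES arrays lay below all 4 sham arrays. Its difference was -0.76 (95% interval -1.26 to -0.26), with a limma p of 0.00786 and an adjusted p of 0.936 over all probe sets. Probe set 10930892 differed by -0.06 and its groups overlapped. The place of each probe set along its gene is not stated in the sources at hand.

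Persephin, the ligand of GFRa4, had the smallest p of the 9 members. Pspn stood at 3.51, 3.34, 3.47 and 3.24 on sham 1 to sham 4, and at 3.11, 3.04, 3.30 and 2.95 on TES 1 to TES 4. TES 3 was the only TES array above a sham array, sham 4. The mean was 3.39 ± 0.12 (SD, n = 4) after sham and 3.10 ± 0.15 after TES, a difference of -0.29 (95% interval -0.51 to -0.07) or 1.22 fold lower. The limma p was 0.0138 unadjusted and 0.836 adjusted, and the exact two-sided permutation p was 0.0571. Leaving out any 1 array gave differences between -0.36 and -0.24. Its mean signal of 3.25 over the 8 arrays lay close to the olfactory guide of 3.10. Both probe sets were lower after TES, by means of -0.30 and -0.29, and in 1 of them (10930837) the groups did not overlap, by a margin of 3.62 on TES 3 against 3.65 on sham 1. The other, 10930836, had a mean signal of 2.85, under the olfactory guide, and its groups overlapped (limma p 0.241).

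Gdnf itself differed by less than its spread. It stood at 3.62, 4.07, 4.07 and 3.43 on sham 1 to sham 4, and at 3.68, 3.23, 3.80 and 3.71 on TES 1 to TES 4. TES 2 was the lowest array of all 8, and the other 3 TES arrays lay within the sham range. The mean was 3.80 ± 0.32 (SD, n = 4) after sham and 3.61 ± 0.26 after TES, a difference of -0.19 (95% interval -0.56 to 0.18) with a limma adjusted p of 0.958. That interval runs from 1.47 fold lower to 1.13 fold higher. Leaving out 1 array gave -0.31 (without sham 4) to -0.06 (without TES 2), and with the probe set of highest mean it was 0.11.

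Artemin, best known for its action on peripheral sensory and sympathetic neurons, was at 3.29 ± 0.34 (SD, n = 4) after sham and 3.25 ± 0.39 after TES. The 4 sham arrays ranged from 2.96 to 3.72 and the 4 TES arrays from 2.78 to 3.66, so the ranges nearly coincided. The difference was -0.05 (95% interval -0.49 to 0.40), and its limma adjusted p was 0.996. Artn had a larger residual SD than 97.9% of all genes, and Gdnf than 93.8% and Nrtn than 91.7%, whereas Pspn ranked at 40.0%. These 4 genes rest on 2 to 4 probe sets each.

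**Figure D2:**
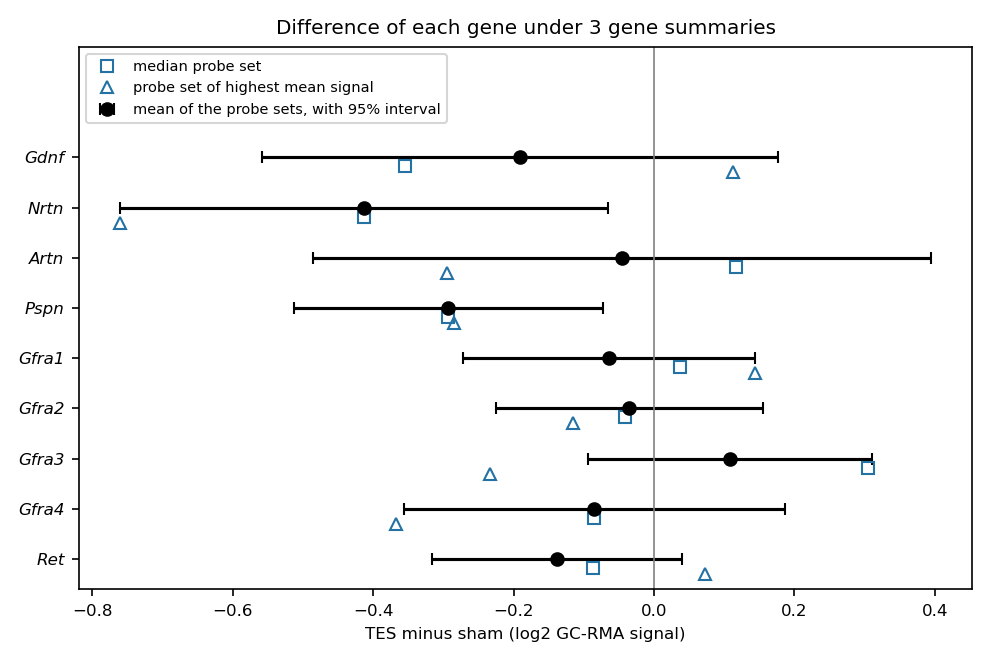
TES minus sham difference in log2 GC-RMA signal (horizontal axis) for each gene (vertical axis). Filled circles are the mean of a gene's probe sets with limma's 95% interval, open squares the median probe set, and open triangles the probe set of highest mean signal. Only the intervals of Nrtn and Pspn exclude 0, and the triangles of Gdnf, Gfra1, Gfra3 and Ret lie on the other side of 0 from their circles.

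The co-receptors had smaller differences than Nrtn and Pspn, and none reached an unadjusted p under 0.05. Gfra1, which binds GDNF, was at 6.47, 6.51, 6.36 and 6.59 on the sham arrays and at 6.26, 6.59, 6.45 and 6.38 on the TES arrays. Only TES 1 lay outside the sham range. The means were 6.48 ± 0.10 (SD, n = 4) and 6.42 ± 0.14, a difference of -0.06 (95% interval -0.27 to 0.14) with a limma adjusted p of 0.976. The interval runs from 1.21 fold lower to 1.10 fold higher. For Gfra1 the median probe set gave 0.04 and the probe set of highest mean 0.14, both of opposite sign.

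Gfra2, the preferred co-receptor of neurturin, gave the narrowest interval of the co-receptors. It was at 6.30, 6.45, 6.43 and 6.35 on the sham arrays and at 6.38, 6.20, 6.47 and 6.33 on the TES arrays. TES arrays were both the highest (TES 3) and the lowest (TES 2) of the 8. The means were 6.38 ± 0.07 (SD, n = 4) and 6.35 ± 0.11, a difference of -0.04 (95% interval -0.22 to 0.15) with a limma adjusted p of 0.994. Changes beyond 1.17 fold lower or 1.11 fold higher lie outside this interval.

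Gfra3, which binds artemin and is best known from peripheral sensory neurons, ranged from 2.86 to 3.20 on the sham arrays and from 3.08 to 3.23 on the TES arrays. The means were 3.04 ± 0.14 (SD, n = 4) and 3.15 ± 0.06, a difference of 0.11 (95% interval -0.09 to 0.31) with a limma adjusted p of 0.957. It was the only member with a higher mean after TES, but the probe set of highest mean gave -0.23. Gfra4, which binds persephin, ranged from 4.05 to 4.51 after sham and from 4.02 to 4.38 after TES. The means were 4.25 ± 0.23 (SD, n = 4) and 4.17 ± 0.16, a difference of -0.08 (95% interval -0.36 to 0.19) with a limma adjusted p of 0.976. The groups overlapped in both genes.

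Ret, the receptor tyrosine kinase that all 4 ligands use, had the narrowest spread of the family. It stood at 7.34, 7.24, 7.28 and 7.22 on sham 1 to sham 4, and at 7.09, 7.04, 7.23 and 7.18 on TES 1 to TES 4. TES 3 was the only TES array above a sham array, sham 4. The mean was 7.27 ± 0.05 (SD, n = 4) after sham and 7.14 ± 0.09 after TES, a difference of -0.14 (95% interval -0.32 to 0.04) or 1.10 fold lower. The limma p was 0.115 unadjusted and 0.920 adjusted, the exact two-sided permutation p was 0.0571, and the unmoderated test gave 0.0363. Its residual SD was lower than that of most genes (rank 6.1% from the lowest), and moderation widened its standard error. The difference was -0.10 with arrays centred on their median and 0.07 for the probe set of highest mean.

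The 23 probe sets of Ret divided into 12 lower and 11 higher after TES, with a median difference of -0.05. At an unadjusted p under 0.05 limma gave 2 of them, both lower, and in 3, all lower, the groups did not overlap. Over all probe sets these shares were 5.13% (2.8% lower) and 2.82% (1.55% lower). Probe set 10864919 stood at 6.20, 5.53, 5.97 and 5.86 on the sham arrays and at 5.23, 4.13, 5.20 and 4.67 on the TES arrays. All TES arrays were below all sham arrays, and TES 2 was the lowest. Its difference was -1.08 (95% interval -1.71 to -0.45), with a limma p of 0.00420 and an adjusted p of 0.863 over all probe sets. Without TES 2 it was -0.85, and it was between -0.98 and -1.22 without any other array. Probe set 10864930 differed by -0.48 (limma p 0.0346, adjusted p 0.964), and its unadjusted p was 0.0899 without sham 1, 0.0524 without sham 3, 0.0884 without TES 2 and 0.0838 without TES 4. Probe set 10864923 differed by -0.62, but by -0.23 without TES 4, which stood at 4.91 while the other TES arrays stood at 6.37 to 6.55.

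**Figure D3:**
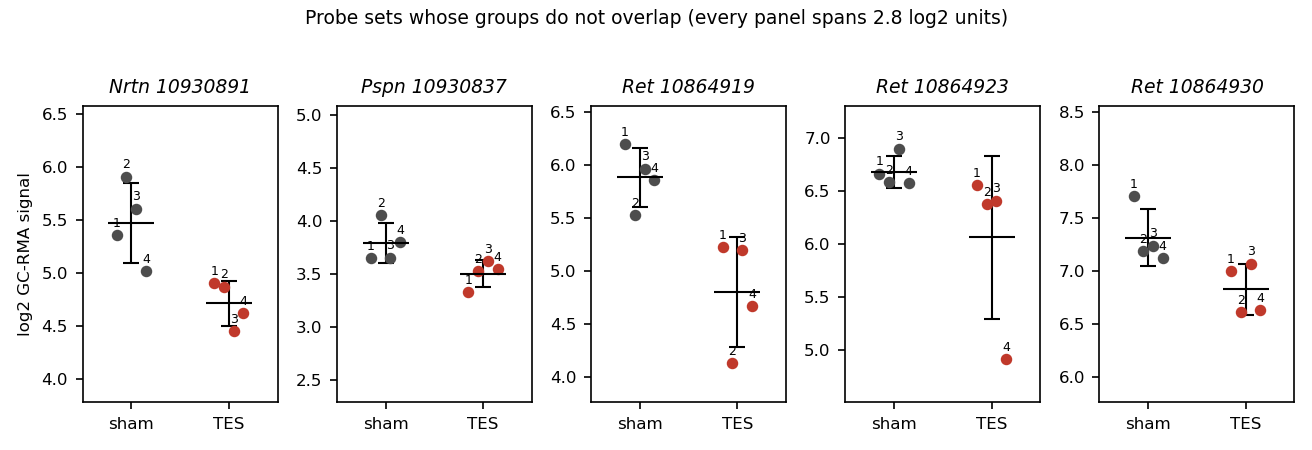
Log2 GC-RMA signal (vertical axis) of the 5 member probe sets whose sham and TES arrays (horizontal axis) did not overlap. Points are arrays, numbered by replicate, horizontal bars are means, error bars are SDs over 4 arrays, and every panel spans 2.8 log2 units. In all 5 the TES arrays lie lower, and in Ret 10864923 the TES mean is set by TES 4 at 4.91.

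Across the family, 47 of 78 probe sets (60.3%) were lower after TES, against 51.7% of all probe sets. An unadjusted limma p under 0.05 was reached by 3 (3.85%), against 5.13% of all probe sets, and none passed the adjusted threshold, as in the whole table. The groups did not overlap in 5 (6.41%), all lower after TES, against 2.82% of all probe sets (1.55% lower). Probe sets of 1 gene share its RNA and are not replicates. The difference ranged from -0.74 to 0.39 over the 13 probe sets of Gfra1, from -0.32 to 0.39 over the 13 of Gfra2, from -0.23 to 0.41 over the 8 of Gfra3 and from -0.42 to 0.31 over the 9 of Gfra4. None of these 43 probe sets had an unadjusted p under 0.05.

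Whether the probe sets of a gene differed unequally was tested with limma's diffSplice. No member passed an adjusted p of 0.05, which 0.141% of 14845 genes with several probe sets did. Ret had an unadjusted p of 0.0150 (adjusted p 0.548) and Nrtn one of 0.0373 (adjusted p 0.698), and 6.75% of these genes had an unadjusted p under 0.05. The Ret p was 0.152 without sham 1, 0.103 without sham 3 and 0.0669 without sham 4. The Nrtn p was 0.0836 without sham 1, 0.0589 without TES 2, 0.0871 without TES 3 and 0.103 without TES 4. The same fit also tests single probe sets against the rest of their gene, and there Ret probe set 10864919 passed, with a relative difference of -0.98, an unadjusted p of 4.77e-05 and an adjusted p of 0.0340. It was the 1 of 78 member probe sets to pass, against 0.185% of 171136 probe sets, and 7 of the 78 (8.97%) had an unadjusted p under 0.05, against 5.55%. These 7 include both Nrtn probe sets, whose relative differences mirror each other and share the p of 0.0373. The adjusted p of Ret probe set 10864919 stayed under 0.05 with other scalings but was 0.213 without TES 2, 0.181 without sham 1, 0.0992 without sham 3, 0.10 without sham 4 and 0.0591 without TES 4.

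DiffSplice assumes that the probe sets of a gene have equal spread, and its p-values were too small on simulated data where they did not. In a test added after the data were seen, each probe set was set against the mean of the gene's other probe sets on the same array. At an unadjusted limma p under 0.05 this gave 4 of the 78 (5.13%), against 5.07% of all such probe sets, and no adjusted p under 0.05. The 4 were both Nrtn probe sets, whose relative values mirror each other, 1 of Gfra1 and 1 of Ret. The Ret probe set was again 10864919, with the same relative difference of -0.98, an unadjusted p of 0.00572 and an adjusted p of 0.908, and did not pass here.

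**Figure D4:**
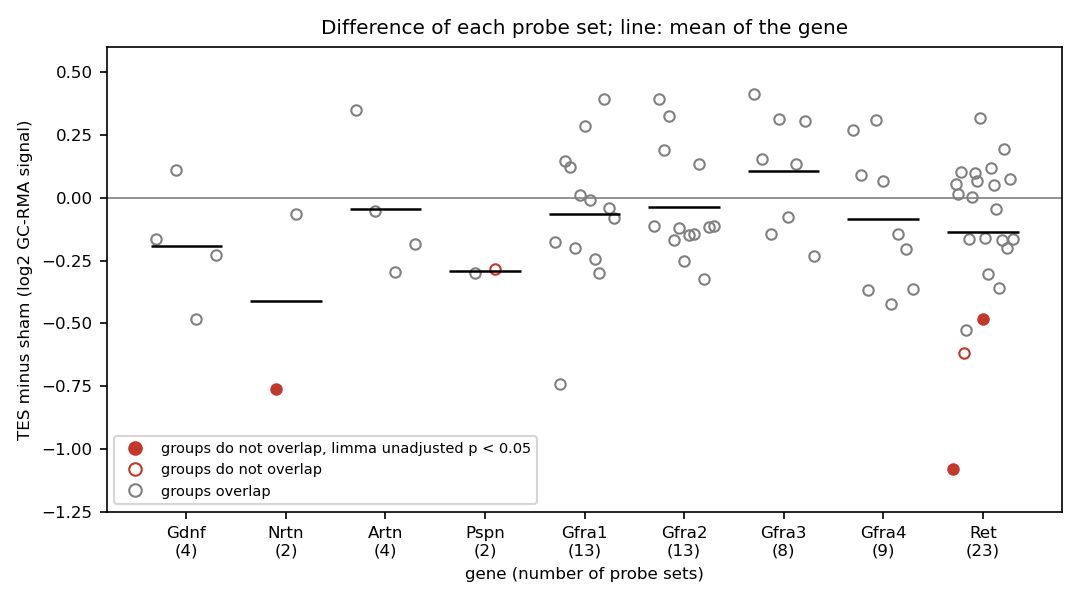
TES minus sham difference in log2 GC-RMA signal (vertical axis) of each of the 78 probe sets, by gene (horizontal axis, with the number of probe sets). Horizontal lines are the gene means, red outlines mark groups that do not overlap and filled circles an unadjusted limma p under 0.05. Of the Ret probe sets 12 lie below 0 and 11 above it, with a median of -0.05. The Ret gene mean is -0.14 and its lowest probe set is at -1.08. Both Pspn probe sets lie near -0.29, and Nrtn has 1 at -0.76 and 1 at -0.06.

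Genes that act downstream of RET or control the family were taken from 6 lists with 78 measured genes (the same number as the member probe sets by coincidence). None of them reached the adjusted threshold in limma, while 3 (3.85%) had an unadjusted p under 0.05, against 5.57% of all genes. Of the 78, 45 were lower and 33 higher after TES, with a median difference of -0.02. Of 22 genes listed as RET adaptors and other proximal signalling proteins 13 were lower. The lowest p was that of Gab2, a scaffold for PI3 kinase signalling, with -0.20 (95% interval -0.38 to -0.02). Stat3, a transcription factor that RET can activate, had 0.27 (95% interval -0.0047 to 0.54) and RGD1562846, for which RefSeq gives Dok5, had 0.21.

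Of 16 genes of the RAS, MAP kinase and PI3 kinase cascades 11 were lower and none had an unadjusted p under 0.05 in limma. Map2k2, which phosphorylates ERK kinases, differed by -0.14, Nras by -0.19 and Hras by 0.08. Genes known to be regulated by RET in kidney or enteric nervous system, or to feed back on it, were lower in 7 of 14. Fos and Egr1 had the smallest p of that list, with 0.83 (95% interval -0.12 to 1.78) and 1.15 (95% interval -0.16 to 2.47). Wnt11, a ligand of the ureteric bud, differed by -0.18 and lay under the olfactory guide on every array. Of 8 other receptors and binding proteins 5 were lower. Gdf15, the ligand of the related receptor GFRAL, differed by 0.20, the alternative GDNF receptor Ncam1 by -0.09 and Itgb1 by 0.08.

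Of 11 transcription factors that control Ret or Gdnf in other tissues, 7 were higher and 4 lower after TES. Phox2a, which specifies autonomic neurons, was at 3.19 ± 0.17 (SD, n = 4) after sham and 2.81 ± 0.18 after TES. Its groups did not overlap, and the limma fit put it -0.38 apart (95% interval -0.63 to -0.12, adjusted p 0.823). Groups without overlap were seen in 2 of the 78 downstream genes, Phox2a and Gab2, against 3.31% of all genes. Pax3 differed by 0.24 and Gata3 by -0.24, and the mean signals of Phox2a, Pax3 and Gata3 all lay under the olfactory guide. Of 7 ubiquitin and degradation genes 5 were lower, led by the CBL ligase genes Cblb with -0.12 and Cblc with -0.16, while Cbl had -0.04.

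The neurotrophin and CNTF family, the other main set of retinal survival factors and receptors, was measured in 13 genes. None had an unadjusted p under 0.05 in limma, 5 were lower and 8 higher, and the median difference was 0.01. The smallest p values were those of the cytokine gene Lif with 0.13 (95% interval -0.06 to 0.32), of the NT-3 receptor gene Ntrk3 with 0.09 and of the BDNF receptor gene Ntrk2 with -0.08. The difference between these counts and those of the GDNF family was not tested.

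Bulk signal cannot tell fewer cells of a type from less RNA per cell. Horizontal cell markers were lower in 5 of 6. Their mean level was 5.77 to 5.81 on the sham arrays and 5.52 to 5.66 on the TES arrays, with no overlap. In every other marker list the mean levels overlapped, and no background share was computed for list means. Taken singly, the horizontal cell markers had groups without overlap in 1 of the 6, against 3.31% of all genes. An unadjusted limma p under 0.05 was reached by 5.57% of all genes. Of the 6 horizontal cell markers 1 had such a p, as had 1 of the 9 ganglion cell, 0 of the 6 amacrine cell and 0 of the 7 Mueller glia markers. The largest difference among them was that of RGD1564677, which is Onecut2 in RefSeq, with -0.71 on 1 probe set. It was the 1 horizontal cell marker without overlap, and it enters the mean level of that list. Calb1 differed by -0.16. Ganglion cell markers were lower in 7 of 9, with levels of 6.83 to 6.96 after sham and 6.70 to 6.87 after TES, and were led by Isl2 with -0.49 and Slc17a6 with -0.14. Amacrine cell markers were lower in 5 of 6, with levels of 7.49 to 7.62 after sham and 7.41 to 7.60 after TES. Mueller glia markers were lower in 2 of 7, with levels of 7.78 to 7.89 and 7.82 to 7.92, and differences of -0.18 for Hes1 and 0.09 for Rlbp1. The part of these cells in the values of Ret and the ligands was not tested.

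Markers of tissue beside the retina held 6 of the 9 markers with an unadjusted limma p under 0.05. All 6 were pigment epithelium or lens markers. The 5 erythrocyte, 3 cornea and surface epithelium and 3 Schwann cell and peripheral nerve markers held 0, though all 5 erythrocyte markers were higher after TES. Pigment epithelium markers were lower in 5 of 7, with 4 (57.1%) at an unadjusted limma p under 0.05, all lower, with levels of 5.21 to 5.60 after sham and 4.89 to 5.54 after TES, and differences of -0.50 for both Rpe65 and Rdh5. Lens markers were higher in 6 of 7, with 2 (28.6%) at such a p, both higher. Their levels were 3.48 to 4.83 and 3.91 to 5.45, and the differences were 0.48 for Mip and 0.43 for Crygc. By mean signal 3 of the 7 lens markers, Crygc among them, lay under the olfactory guide, as did 2 of the 7 pigment epithelium markers. No marker passed the adjusted threshold in limma, 9 of 83 (10.8%) had an unadjusted p under 0.05, against 5.57% of all genes, and the part of these tissues in the members' values was not tested.

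The profiles most like those of Gdnf, Nrtn and Ret were sought among all genes. Likeness was the root mean square difference, on the log2 scale, between profiles over the 8 arrays after each was centred on its own mean. Nearest to Ret were Fam134a (0.0254), Anxa11 (0.0323) and Nup210 (0.0324), where Ret itself had an SD of 0.10 over the 8 arrays. Nearest to Nrtn were Pskh1 (0.106), Trim16 (0.119) and Madcam1 (0.123), with an SD of 0.336 for Nrtn. Nearest to Gdnf were Prg3 (0.0743), Bpil1 (0.0902) and the olfactory receptor gene Olr1361 (0.0909), with an SD of 0.290 for Gdnf. These are the smallest of 16633 differences each, over 8 arrays, and are given as a description.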

How the data were processed

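The deposited value table holds log2 GC-RMA signals for 8 arrays and 213067 probe sets, which per the series text were computed by the authors with GeneSpring GX. The log base was inferred from the values, which end at 13.2. The sources state no normalization between arrays. RNA was primed with oligo(dT), per the labels' protocols. The labels and the series text name different labelling kits and different makers of the RNA kit. The array annotation, which gives old symbols, named 1 gene for 172924 probe sets, several for 1661 and none for 38482. Probe sets of a gene were averaged, with no filter on low values. TES was compared with sham in limma 3.58.1 (lmFit, eBayes; R 4.3.3) over all 16633 genes, and over all probe sets, with Benjamini-Hochberg adjustment and a threshold of 0.05. The series text uses SAM with an unadjusted p under 0.05 and 1.2 fold, and those thresholds were applied to limma. Differences between the probe sets of a gene were tested with diffSplice. Scripts were tested on simulated data. The number of arrays limits the precision.

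Named genes are all members, then the 3 genes of smallest p of each downstream list and of the neurotrophin list, the 2 of smallest p of 5 marker lists, and the 3 nearest profiles of Gdnf, Nrtn and Ret. Members and lists were chosen with earlier results of these data known. Symbols on the lists with no match in the annotation were not analysed here.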

Additional observations from a re-analysis of the deposited data

Results flagged for a closer look

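In each group of 4 arrays of a named gene or of a probe set drawn on its own, the gap from the highest or lowest array to its neighbour was divided by the group's range and compared with Dixon's 95% critical value. None of the 18 groups of member genes exceeded it. Of all 108 groups tested 5 did, and chance alone gives about 1 in 20. Ret probe set 10864923 had a ratio of 0.89 after TES, where TES 4 stood at 4.91 and the next array at 6.37. RGD1562846 (Dok5) had 0.89 after sham, with sham 1 at 5.65 and the next array at 5.30. Ntrk3 had 0.879 after TES, with TES 4 at 6.40 and the next array at 6.33. Wnt11 had 0.841 after TES, with TES 2 at 3.01 and the next array at 2.60. Rdh5 had 0.834 after TES, with TES 2 at 5.31 and the next array at 4.57.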

How the results depend on the processing

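No member passed the adjusted threshold under any alternative, and Nrtn and Pspn were lower after TES under every one. The count of members at an unadjusted p under 0.05 was 2 in most settings, 0 with the exact permutation test, and 1 to 2 with 1 array left out. The permutation p falls under 0.05 only where the groups do not overlap, so its 0 restates the overlap in every member. With the unmoderated test the 2 were Pspn and Ret. Signs turned for Artn (0.117 with the median probe set, 0.112 without TES 2, 0.001 without TES 3, 0.095 without sham 2), Gdnf (0.112 with the probe set of highest mean), Gfra1 (0.037 with the median and 0.144 with the highest probe set), Gfra2 (0.001 with centred arrays, 0.013 without TES 2), Gfra3 (-0.233 with the highest probe set, -0.049 without dim probe sets), Gfra4 (0.002 without sham 2) and Ret (0.073 with the highest probe set). The cause was not tested. Over the 8 fits without 1 array, Artn ranged from -0.184 to 0.112, Gdnf from -0.314 to -0.064, Gfra1 from -0.12 (without TES 2) to -0.01 (without TES 1), Gfra3 from 0.049 (without sham 4) to 0.163 (without sham 2), Gfra2 from -0.076 to 0.013 and Gfra4 from -0.157 to 0.002. With 1 array left out, 6 to 8 members were lower, against 52.7% to 57.7% of all genes. In these fits 2 to 6 member probe sets, 1 to 6 downstream genes, 4 to 13 marker genes and 0 neurotrophin genes had an unadjusted limma p under 0.05. The 6 probe sets came without sham 2, the 6 and the 5 downstream genes without TES 2 and sham 4, the 1 without TES 1 or sham 3, and the 4 markers without TES 4. Without dim genes, or dim probe sets, the count of downstream genes at that p was 1. Without dim probe sets the count of markers was 5. The unmoderated test gave 1 neurotrophin gene. Deviations of same-numbered arrays correlated at -0.12 to 0.13. For 2 of the 4 numbers the sham array correlated best with the TES array of the same number. These few values cannot decide whether shared replicate numbers mark pairs. With a replicate block, 2 members and 4 member probe sets had an unadjusted p under 0.05, and 1050 of all genes in place of 927. The diffSplice F test called 0 members in every setting. Its test of single probe sets called 1 gene (Ret) with all arrays in the fit. That call was lost without sham 1, sham 3, sham 4, TES 2 or TES 4. The added test of each probe set against the others of its gene called 0. The test of single probe sets and the added test were both chosen for report after the data were seen.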
